A study of Mus musculus with 4 samples.

Results

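The genes described here are the protein coats of lipid droplets and the enzymes that fill and empty the droplet core: the perilipins Plin2, Plin3, Plin4 and Plin5, the lipases Pnpla2, Lipe and Mgll, and the acyltransferases Dgat1, Dgat2 and Soat1. They are 10 of the 21367 genes named on the arrays and were chosen by symbol for their role, with earlier results of these data known. They are read by 13 of the 28330 probes that matched 1 gene, 4 of them for Mgll and 1 for each other gene. Cultured mouse aortic smooth muscle cells of 2 genotypes, each with and without low-density lipoprotein (LDL), gave 4 groups of 1 array each. The groups were L2AKO cells with LDL, L2AKO control cells, WT cells with LDL and WT control cells, where L2AKO cells lack LAMP-2A, the splice product of Lamp2 that serves as the receptor of chaperone-mediated autophagy. Both lines were of the C57BL/6J background, each prepared from 5 aortas and used between passages 12 and 16, and every group was cultured for 24 h with 5% serum depleted of lipoproteins. LDL was added at 150 µg/ml of cholesterol, with lipoprotein lipase of bovine origin at 0.1 U/ml. The sources used here do not say whether control cells had the lipase too. The RNA of each group came from a pooled triplicate, so no value below has a replicate error or a test, and a difference between genotypes cannot be told apart from a difference between the 2 cell lines.

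A lipid droplet is a core of triglyceride and cholesteryl ester inside a phospholipid monolayer to which perilipins bind. Dgat1 and Dgat2 catalyse the last step of triglyceride synthesis and Soat1 esterifies cholesterol, the form in which arterial cells loaded with lipoprotein store it. Pnpla2 (adipose triglyceride lipase) removes the first fatty acid of a triglyceride, Lipe (hormone-sensitive lipase) acts on diacylglycerol and cholesteryl ester, and Mgll (monoacylglycerol lipase) releases the last fatty acid. In mouse cells, chaperone-mediated autophagy is known to take Plin2 and Plin3 protein off the droplet, after which Pnpla2 gains access to the core. The arrays measured mRNA, neither protein nor stored lipid.

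Values are given as normalised log2, the log2 of the background-subtracted probe signal minus the 75th percentile of the same array. This percentile was 433.8, 389.4, 370.6 and 318.8 signal units in L2AKO LDL, L2AKO control, WT LDL and WT control cells, and between 47.2% and 52.0% of probes were well above background. The L2AKO LDL array lay on a slide of its own while the other arrays shared a slide, so that for this array slide and group cannot be told apart. Of the 2 Lamp2 probes, one read 2.41, 2.30, 3.74 and 3.68 in that order and was lower in both L2AKO arrays, and the other read 6.09, 6.33, 6.38 and 6.29. The sources used here do not say which of them reads the deleted sequence. Of 10 smooth muscle markers, 7 were well above background on all arrays, while Myh11, Lmod1 and Des were not on any.

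**Figure D1:**
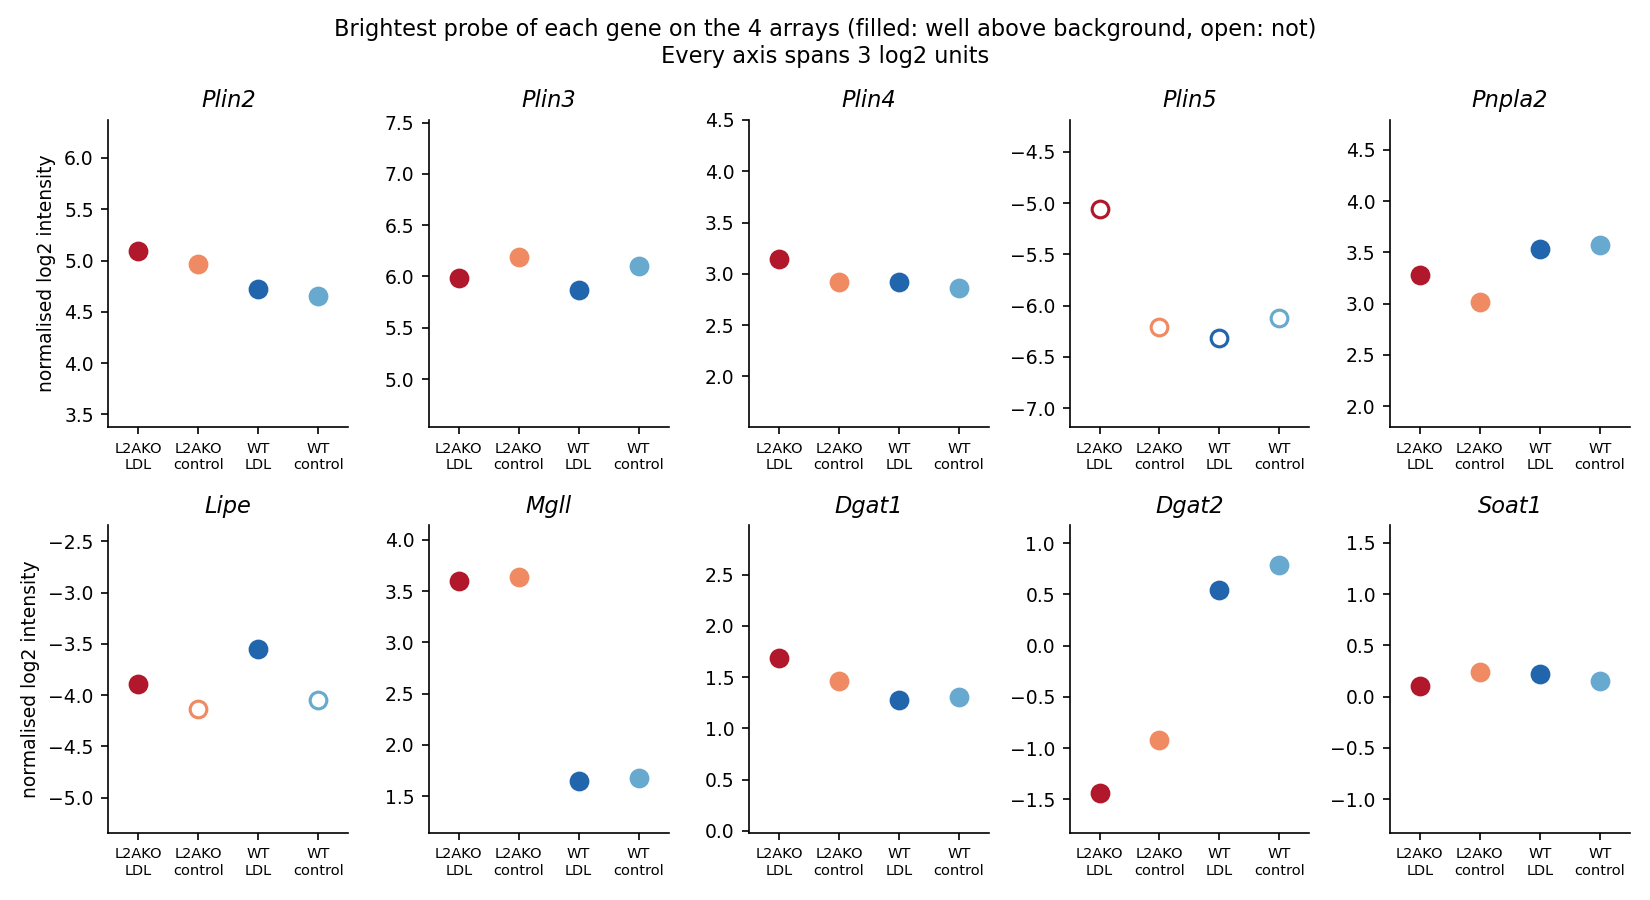
Normalised log2 value (vertical axis) of the brightest probe of each gene on the L2AKO LDL, L2AKO control, WT LDL and WT control arrays, with filled points well above background and open points not. Mgll sits near 3.6 on both L2AKO arrays against 1.65 and 1.67 on the WT arrays, Dgat2 runs the other way, and Plin2, Plin3, Plin4 and Soat1 vary by 0.43 or less over the arrays.

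Among the 10 genes, Mgll and Dgat2 differed most between genotypes, in opposite directions, and their genotype difference was present with and without LDL. Mgll, the enzyme of the last lipolytic step, had normalised log2 values of 3.60 in L2AKO LDL and 3.64 in L2AKO control cells, against 1.65 in WT LDL and 1.67 in WT control cells. The corresponding signals were 5262 and 4859 units in L2AKO cells, against 1161 and 1018 units in WT cells. Both L2AKO arrays lay far above both WT arrays, and within a genotype the LDL and control arrays were nearly the same. Mgll was therefore 3.87-fold higher in L2AKO than in WT cells with LDL (log2 difference 1.95) and 3.91-fold higher without LDL (log2 difference 1.97). Repeated spots of similar brightness within an array gave a standard deviation of 0.06 for a log2 difference. This technical standard deviation covers error between spots only, and not that of labelling, hybridisation, slide or scaling between arrays. Of all genes measured, 5.36% with LDL and 4.53% without LDL lay at least as far apart between genotypes.

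The Mgll difference did not rest on a single probe. The brightest of the 4 probes is the one given above. A dimmer one had normalised log2 values of 1.60 and 1.53 in L2AKO LDL and L2AKO control cells, against −0.23 and −0.30 in WT LDL and WT control cells. Another had 0.55 and 0.69 in L2AKO cells, against −1.35 and −1.32 in WT cells. The log2 difference between genotypes of these probes was 1.83 and 1.90 with LDL, and 1.83 and 2.00 without LDL. The last probe, at 3.68 to 5.65 signal units, was at background on all 4 arrays and gives no information on the gene. Which Mgll transcripts the probes read was not analysed here.

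The promoter windows of Mgll are shown because its mRNA differed between the lines on 3 probes, and that of Plin2 because it is one of the coats named above as removed by chaperone-mediated autophagy. They were taken from RefSeq (mouse assembly GRCm38.p6) and run 5′ to 3′ on the gene's strand over 300 bases, 250 before and 50 after a transcript start. Capitals mark matches on either strand to the E-box CACGTG, the GC box GGGCGG or the nuclear receptor half-site AGGTCA. The Mgll windows are at chr6:88724162-88724461 and chr6:88724454-88724753, both on the plus strand with starts 292 bases apart, and that of Plin2 is at chr4:86670010-86670309 on the minus strand.
Mgll, window 1: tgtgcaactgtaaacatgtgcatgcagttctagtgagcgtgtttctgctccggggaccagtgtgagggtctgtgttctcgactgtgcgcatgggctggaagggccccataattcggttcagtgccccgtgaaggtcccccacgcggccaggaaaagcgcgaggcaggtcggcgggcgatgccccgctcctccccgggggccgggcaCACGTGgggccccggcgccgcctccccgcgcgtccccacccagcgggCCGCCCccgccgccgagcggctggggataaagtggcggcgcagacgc
Mgll, window 2: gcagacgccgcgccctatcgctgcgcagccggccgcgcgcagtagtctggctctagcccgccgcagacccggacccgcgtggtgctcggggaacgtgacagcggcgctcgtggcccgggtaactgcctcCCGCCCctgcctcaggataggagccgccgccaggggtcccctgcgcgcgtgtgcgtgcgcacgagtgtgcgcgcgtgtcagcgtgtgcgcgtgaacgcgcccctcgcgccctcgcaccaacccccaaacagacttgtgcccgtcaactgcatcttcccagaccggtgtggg
Plin2: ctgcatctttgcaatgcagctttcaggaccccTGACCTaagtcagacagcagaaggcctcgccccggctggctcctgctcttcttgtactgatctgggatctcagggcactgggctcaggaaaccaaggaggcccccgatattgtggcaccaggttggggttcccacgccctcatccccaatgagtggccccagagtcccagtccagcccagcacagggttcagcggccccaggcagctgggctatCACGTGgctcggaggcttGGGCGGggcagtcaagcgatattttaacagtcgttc
The windows of Mgll held 70.0% and 72.3% G and C and that of Plin2 60.7%, against a median of 52.7% over all 32851 windows of the table. The E-box stood in 1 of the 2 Mgll windows and in that of Plin2, and 7.15% of all windows held it. The GC box stood in all 3 windows shown and in 35.7% of all windows, and the half-site stood in that of Plin2 and in 16.3% of all windows. The TATA box TATAAA, found in 13.6% of all windows, was in none of the 11 windows of the 8 droplet genes that matched the table. A match describes these letters only. No window was matched for Dgat1 and Dgat2.

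Dgat2, an acyltransferase of triglyceride synthesis, had normalised log2 values of −1.44 in L2AKO LDL and −0.92 in L2AKO control cells, against 0.54 in WT LDL and 0.79 in WT control cells. In signal units this was 160 and 206 in L2AKO cells, against 538 and 551 in WT cells. Both L2AKO arrays were below both WT arrays, and within each genotype the LDL array was the lower one. Dgat2 was 3.94-fold lower in L2AKO than in WT cells with LDL (log2 difference −1.98) and 3.27-fold lower without LDL (log2 difference −1.71). The technical standard deviation at this brightness was 0.09, and 5.23% of all genes measured with LDL and 5.96% without LDL were at least as far apart. The whole of the Dgat2 result rests on 1 probe.

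**Figure D2:**
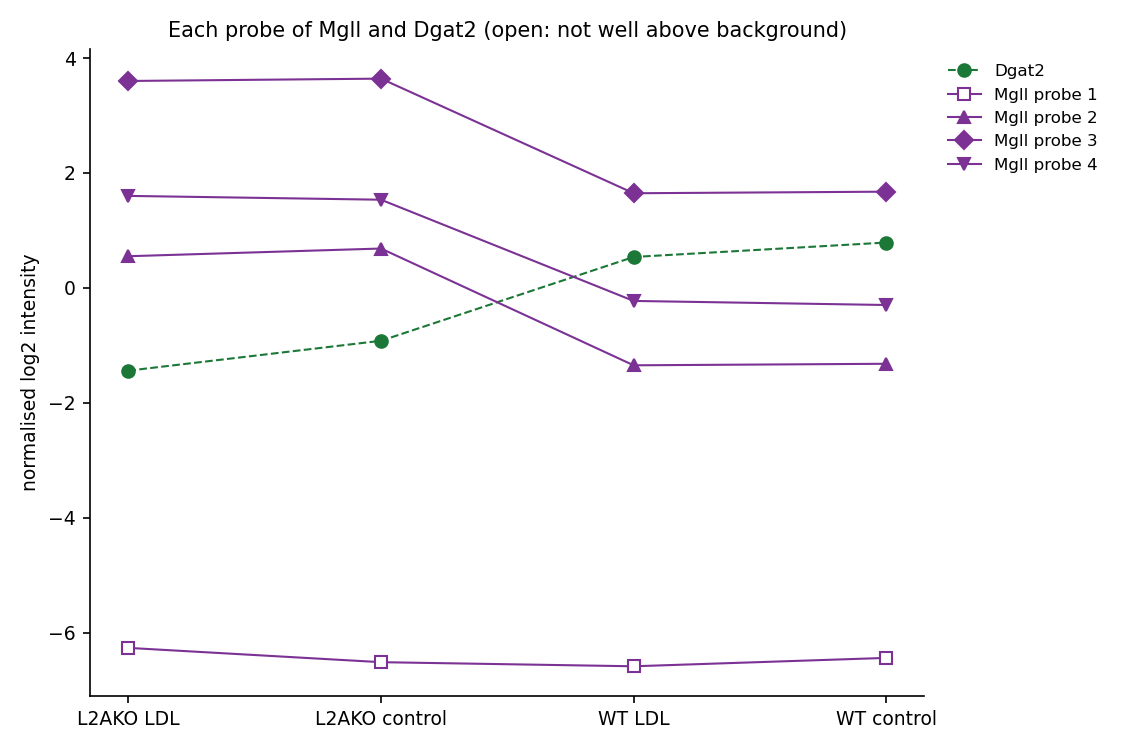
Normalised log2 value of each Mgll probe and of the Dgat2 probe on the 4 arrays, with open points not well above background. The 3 Mgll probes above background are higher in both L2AKO arrays than in both WT arrays by 1.83 to 2.00, probe 1 of Mgll stays at background, and Dgat2 is lower in both L2AKO arrays.

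A threshold of 1.5-fold was used to count genes as apart, where the probe was well above background on the arrays compared. Of the 10 genes, 9 were measured in L2AKO LDL against WT LDL cells, and 1 was higher (Mgll) and 1 lower (Dgat2), where 16.9% of all genes measured were higher and 20.5% lower, 37.4% together. Without LDL, 8 were measured in L2AKO against WT cells, with Mgll again higher and Dgat2 again lower, where 15.2% of all genes were higher and 16.6% lower, 31.7% together. At 2-fold the count was again 2 in each comparison, where 18.7% of all genes with LDL and 15.8% without LDL were as far apart. With only 2 genes past either threshold, the share of droplet genes was below that of all genes at 1.5-fold and a little above it at 2-fold, and the count says nothing particular about the set. Of all genes past 1.5-fold with LDL, 45.1% were higher in L2AKO cells, and 61.9% when arrays were scaled by their median. The median log2 difference of the genes measured was 0.12 with LDL and 0.09 without LDL, against −0.05 and −0.01 over all genes. The genotype difference was wide throughout the arrays, with a standard deviation over all genes of 0.96 with LDL and 0.88 without LDL. The 2 genotype comparisons use different arrays but the same pair of cell lines.

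**Figure D3:**
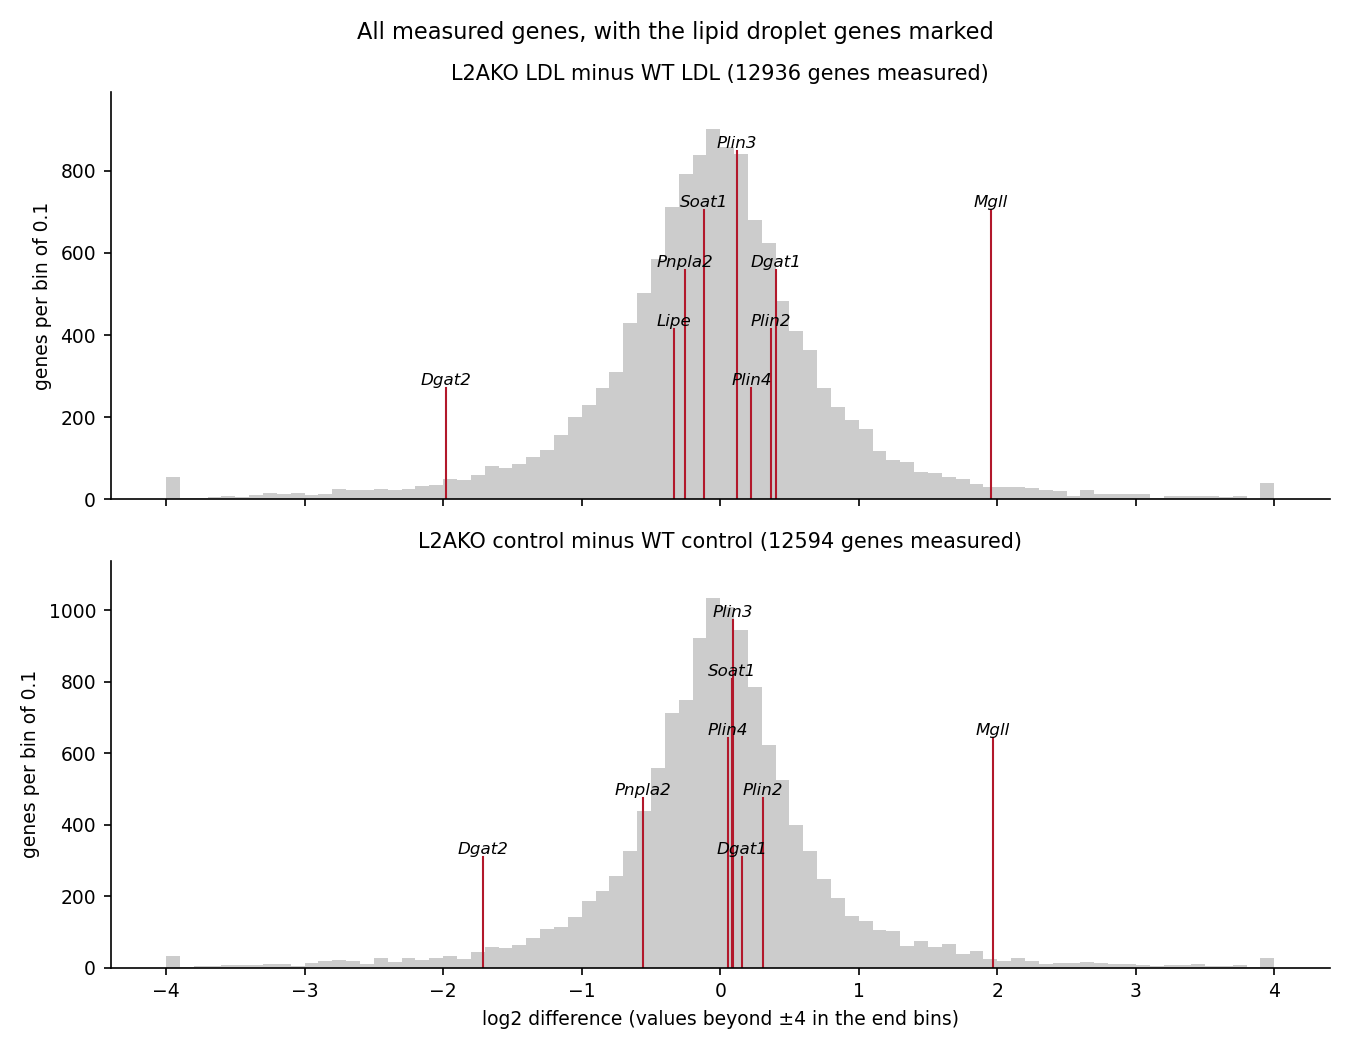
Histograms of the log2 difference between L2AKO and WT over all genes measured, with LDL above and without LDL below, and the measured droplet genes marked as lines, 9 above and 8 below, whose heights carry no value. Mgll lies in the upper tail and Dgat2 in the lower tail of both distributions, while the other genes lie in the centre.

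Of the perilipins, the broadly expressed coats Plin2 and Plin3 differed little between the 4 arrays. Plin2 had normalised log2 values of 5.09 in L2AKO LDL and 4.96 in L2AKO control cells, against 4.72 in WT LDL and 4.66 in WT control cells. The order of the values was by genotype and then by LDL, but the whole range was 0.43. Plin2 was 0.37 higher on the log2 scale in L2AKO than in WT cells with LDL and 0.31 without LDL. The technical standard deviation, between spots only, was 0.055. Of all genes, 54.7% and 56.0% lay at least as far apart. Its LDL response was a log2 difference of 0.13 in L2AKO cells and 0.07 in WT cells, both small against the spread of all genes.

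Plin3, the coat that moves between cytosol and small droplets, had normalised log2 values of 5.99 in L2AKO LDL and 6.19 in L2AKO control cells, against 5.86 in WT LDL and 6.10 in WT control cells. Here the LDL arrays of both genotypes were the lower ones, by a log2 difference of −0.21 in L2AKO cells and −0.24 in WT cells. L2AKO cells differed from WT cells in Plin3 by 0.12 with LDL and 0.09 without LDL.

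Plin4, a perilipin best known from adipocytes and muscle, had normalised log2 values of 3.15 and 2.92 in L2AKO LDL and L2AKO control cells, against 2.92 and 2.86 in WT LDL and WT control cells. Only the L2AKO LDL array stood above the others, by 0.23 over the L2AKO control array and by 0.22 over the WT LDL array. Plin5, the coat of oxidative tissues that ties droplets to mitochondria, was at background on all arrays. Its signal was 13.0 units in L2AKO LDL and 5.25 in L2AKO control cells, against 4.67 in WT LDL and 4.58 in WT control cells. No fold is given for it, and the array with the highest reading is the one on its own slide.

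Of the lipases, Pnpla2 was lower in L2AKO cells without LDL and less so with it. Pnpla2 had normalised log2 values of 3.28 in L2AKO LDL and 3.01 in L2AKO control cells, against 3.54 in WT LDL and 3.57 in WT control cells. Both L2AKO arrays were below both WT arrays. Without LDL the L2AKO value was 1.47-fold lower (log2 difference −0.56), just short of the 1.5-fold threshold, and 33.5% of all genes lay at least as far apart. With LDL the difference was −0.25, and only −0.06 with median scaling. The L2AKO LDL array was 0.27 above the L2AKO control array while the WT arrays differed by −0.04.

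Lipe was near the detection limit throughout. Its signal was 29.3 units in L2AKO LDL and 22.2 in L2AKO control cells, against 31.6 in WT LDL and 19.3 in WT control cells. The LDL array of each genotype was well above background and the control arrays were not. Lipe read 1.18-fold higher in L2AKO LDL than in L2AKO control cells, and 1.41-fold higher in WT LDL than in WT control cells. Both values are taken against a control signal not well above background, so they are estimates and not limits. The technical standard deviation at that brightness was 0.34 on the log2 scale, so neither difference exceeds 2 such deviations. With LDL, where both arrays were above background, Lipe differed by −0.33 between L2AKO and WT cells, which is also no larger than that deviation.

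Of the other acyltransferases, Dgat1 had normalised log2 values of 1.69 and 1.46 in L2AKO LDL and L2AKO control cells, against 1.28 and 1.31 in WT LDL and WT control cells. The L2AKO arrays were higher, by a log2 difference of 0.41 with LDL and 0.16 without LDL, opposite in direction to Dgat2. Scaling by the array median in place of the 75th percentile gave 0.60 with LDL, past 1.5-fold. Soat1, which makes cholesteryl ester, had normalised log2 values of 0.10 and 0.24 in L2AKO LDL and L2AKO control cells, against 0.22 and 0.16 in WT LDL and WT control cells. Its range over the arrays, 0.14, was the smallest of the 10 genes and below 2 technical standard deviations of 0.08.

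No droplet gene that was measured reached 1.5-fold with LDL in either genotype. In L2AKO cells 8 of the 10 were measured and 0 were 1.5-fold apart, where 7.89% of all genes were. In WT cells 8 were measured and 0 were 1.5-fold apart, where 3.71% of all genes were. The lowest log2 difference with LDL was that of Dgat2, −0.52 in L2AKO cells and −0.25 in WT cells, where 10.2% and 21.1% of all genes lay at least as far apart. The median over the genes measured was 0.04 in L2AKO and −0.03 in WT cells, against −0.08 and −0.05 over all genes.

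The difference between the LDL responses, that of L2AKO cells minus that of WT cells, uses all 4 arrays and the slide of the L2AKO LDL array enters it once. Of the 8 genes measured on all arrays, 0 reached 1.5-fold, against 8.76% of all genes. The values lay between −0.27 for Dgat2 and 0.30 for Pnpla2, and the median was 0.04 against −0.03 over all genes. Mgll was at −0.01, so the LDL responses of this gene in the 2 lines were nearly equal.

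**Figure D4:**
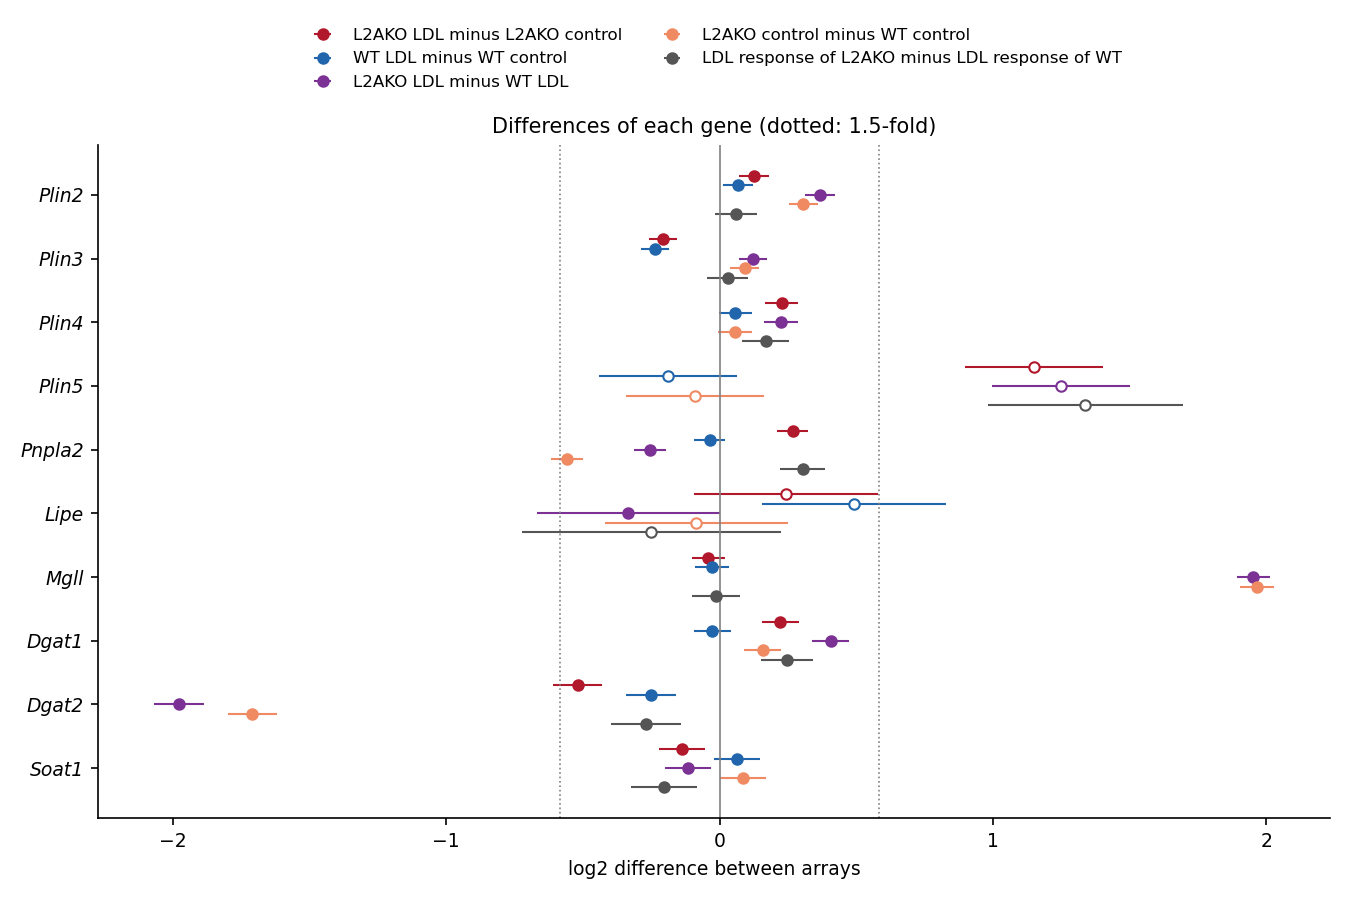
Log2 difference of each droplet gene in each of the 5 comparisons, with dotted lines at 1.5-fold, bars of 1 technical standard deviation from repeated spots, and open symbols where a probe was not well above background on every array used. The genotype differences of Mgll and Dgat2 stand outside the lines, and none of the measured LDL responses does.

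The other genes of droplet biology are given from lists of droplet proteins, triglyceride synthesis, ester hydrolysis and sterol ester turnover, and lipolysis control, counted on the brightest probe. The counts between genotypes stand against 16.9% of all genes higher and 20.5% lower with LDL, and 15.2% higher and 16.6% lower without LDL. Ranges are over the alternatives of scaling, background correction and probe choice. Of the 18 listed droplet proteins, 17 were on the array. In L2AKO against WT cells with LDL 3 were higher and 2 lower of 12 measured, and without LDL 3 were higher and 1 lower of 10. Scaling by the array median gave 4 higher and 1 lower with LDL, and 5 higher and 1 lower without. The deposited values and every other alternative of scaling and background correction also gave 1 lower with LDL. Only the mean over probes kept 2. Cideb, which promotes droplet fusion and lipoprotein lipidation in liver, was higher in L2AKO cells, 4.52-fold with LDL (log2 range 1.68 to 2.87) and 4.27-fold without. Its values were 0.43 in L2AKO LDL and 0.43 in L2AKO control cells, against −1.75 in WT LDL and −1.66 in WT control cells. Ldah, a droplet-associated hydrolase, was 2.29-fold higher with LDL (log2 difference 1.19, and 0.63 on its other probe). Without LDL its log2 difference was 0.91, and 0.33 on the other probe.

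G0s2, a protein inhibitor of Pnpla2, read −4.07 in L2AKO LDL and −4.28 in L2AKO control cells, against −1.37 in WT LDL and −2.42 in WT control cells. Both L2AKO arrays were near the detection limit and the L2AKO control array was not well above background. G0s2 was 6.50-fold lower in L2AKO than in WT cells with LDL. Without LDL it read 3.63-fold lower, an estimate and not a limit because of that dim array. The size of the value with LDL depended on the processing, with log2 differences between −2.70 and −1.36. In WT cells G0s2 was 2.07-fold higher with LDL. Fitm2, which takes part in droplet budding from the endoplasmic reticulum, was lower in L2AKO cells without LDL (log2 difference −1.66, range −1.66 to −0.93). Its log2 difference with LDL was −0.64, just past 1.5-fold. It fell short of 1.5-fold with the deposited values and under all alternatives of scaling and background correction.

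Of the 16 genes of triglyceride synthesis other than Dgat1 and Dgat2, 14 were measured, and 2 were higher and 5 lower in L2AKO than in WT cells both with and without LDL. The medians were −0.31 with LDL and −0.34 without LDL, against −0.05 and −0.01 over all genes, and median scaling gave −0.11 with LDL. Lpin3, a phosphatidate phosphatase, was higher in L2AKO cells by a log2 difference of 1.49 with LDL (range 0.87 to 1.69) and 1.17 without. Its relative Lpin2 was lower, with log2 differences of −1.37 with LDL and −1.22 without.

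Of the 4 acyl-CoA synthetases, which activate fatty acids for esterification, 3 were among the 5 lower genes. Acsl4, which prefers arachidonic acid, had log2 differences of −1.43 with LDL and −1.40 without. Acsl1 had −1.19 with LDL and −0.90 without, and −0.60 and −0.44 on its other probe. Acsl3, the synthetase of nascent droplets, was lower with LDL in both genotypes, with −0.91 in L2AKO LDL and 0.39 in L2AKO control cells, against −0.02 in WT LDL and 1.12 in WT control cells. Its LDL response was −1.30 in L2AKO and −1.15 in WT cells.

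Of 12 genes of ester hydrolysis and sterol ester turnover, 2 were higher and 3 lower of 10 measured in L2AKO than in WT cells with LDL, and 2 were higher and 2 lower of 9 without LDL. Median scaling gave 4 higher and 2 lower with LDL and turned the list median to 0.10, against −0.10 as reported. Npc1, which exports cholesterol from lysosomes, was 1.05 higher on the log2 scale in L2AKO cells without LDL and 0.84 higher with LDL. The carboxylesterase Ces1d was lower in both comparisons, with log2 differences of −1.02 without LDL and −0.82 with LDL. Its relative Ces1f was lower with LDL (−1.26, range −1.26 to −0.67). Ces1f also read 4.05-fold lower in L2AKO than in WT cells without LDL, and 2.89-fold higher in L2AKO LDL than in L2AKO control cells. Both values use its signal in L2AKO control cells, which was not well above background, so they are estimates and not limits.

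Of 11 genes that control lipolysis, 4 were higher and 1 lower of 7 measured in L2AKO than in WT cells in both comparisons. With LDL, normexp, the deposited values and the mean over probes gave 3 higher. Without LDL, only the mean over probes gave 3 higher. Pde3b, the phosphodiesterase through which insulin lowers lipolysis in adipocytes, read 0.06 in L2AKO LDL and −0.15 in L2AKO control cells, against −2.29 in WT LDL and −2.79 in WT control cells. It was 5.11-fold higher in L2AKO cells with LDL and 6.21-fold higher without, with log2 ranges of 1.70 to 2.55 and 1.84 to 2.72. Adrb3, the beta-adrenergic receptor of adipocyte lipolysis, was 3.25-fold higher with LDL and 3.34-fold higher without on the brightest of its probes, and its other probe was not above background. The log2 ranges of Adrb3 were 1.09 to 1.90 with LDL and 1.02 to 1.83 without, with the mean that includes the dim probe among the alternatives. Npr3, the clearance receptor of natriuretic peptides, was 3.00-fold lower in L2AKO cells with LDL and 2.59-fold lower without. Prkar2b, a regulatory subunit of protein kinase A, was 1.18 higher on the log2 scale without LDL and 0.79 higher with LDL.

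**Figure D5:**
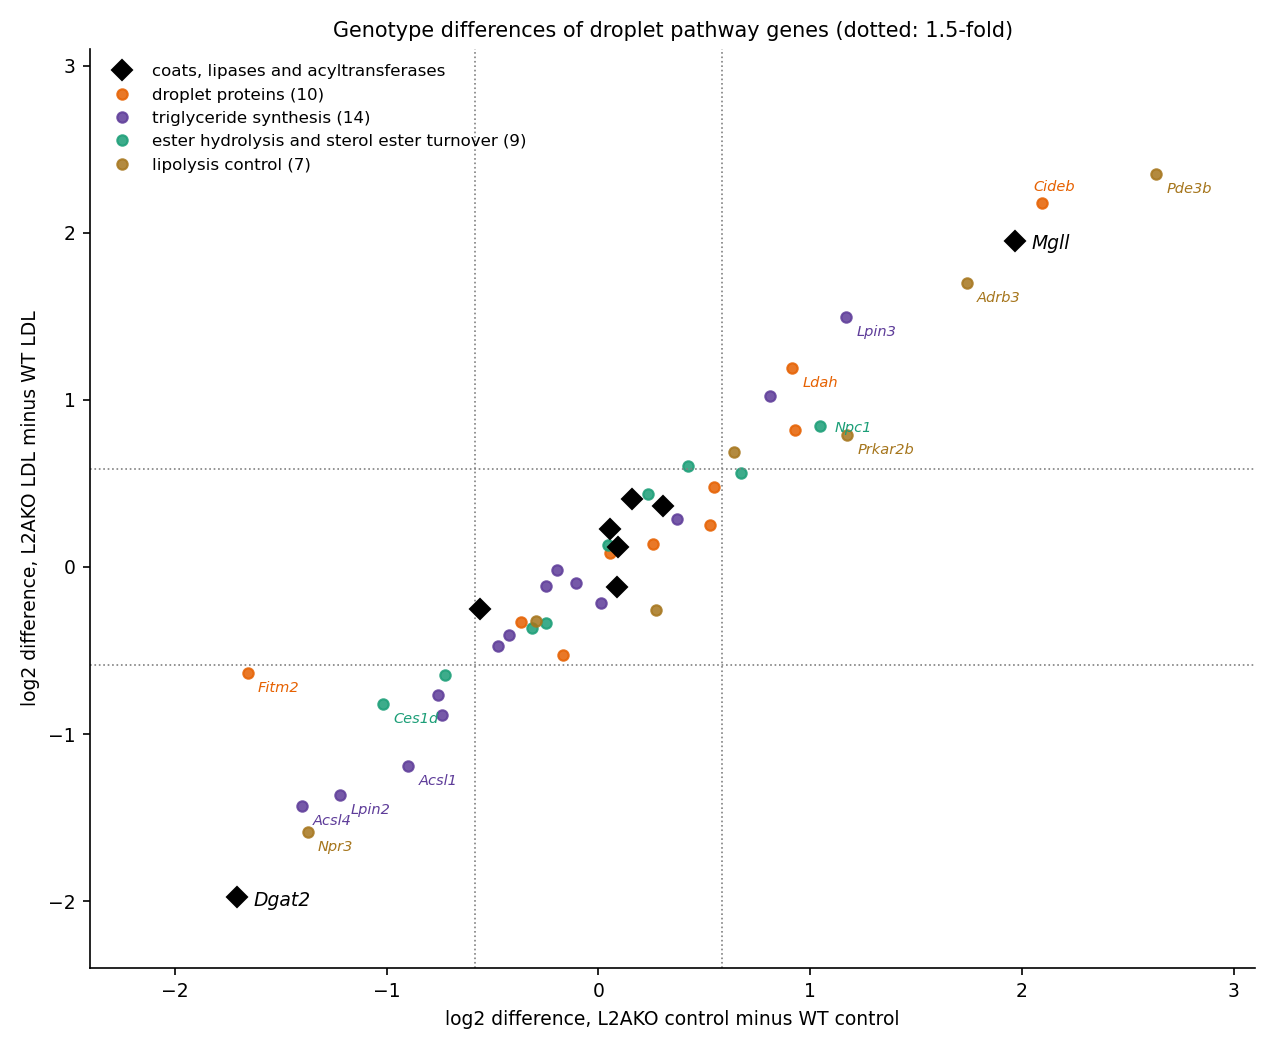
Log2 difference between L2AKO and WT with LDL (vertical) against the same without LDL (horizontal) for the genes measured on all arrays, coloured by list, with the 8 droplet coats, lipases and acyltransferases as diamonds and dotted lines at 1.5-fold. Mgll lies with Cideb, Pde3b and Adrb3 at the upper right and Dgat2 at the lower left; the same cell lines enter both axes, so closeness to the diagonal is not read as a result.

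The LDL responses of these pathway genes were counted at 1.5-fold in the same way. Over both directions, 7.89% of all genes passed it in L2AKO cells and 3.71% in WT cells. Counts of at most 2 genes a list are too small to be compared with these shares. In L2AKO cells, where 3.34% of all genes were higher and 4.55% lower, 1 higher of 11 droplet proteins, 2 lower of 14 genes of triglyceride synthesis, 0 of 9 of ester hydrolysis and 1 lower of 8 of lipolysis control were counted. Ces1f is outside these 9 because it was dim in L2AKO control cells, and its difference of 2.89-fold, read on that dim signal, lies past the threshold. The 1 higher droplet protein was lost with normexp and with the deposited values, and 1 of the 2 lower genes of triglyceride synthesis under 5 of 6 alternatives. The 1 lower gene of lipolysis control was lost with the median, the 75th percentile over probes above background, normexp and the deposited values. With the mean over probes that list had 2 lower genes. In WT cells, where 1.25% of all genes were higher and 2.46% lower, the counts were 1 higher and 1 lower of 11 droplet proteins, 1 lower of 14, 1 higher of 10 and 0 of 7. The 1 lower droplet protein in WT cells was lost with that percentile, normexp and the deposited values. The 1 higher gene of ester hydrolysis was lost with normexp and the deposited values.

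Some markers of other cell types differed with genotype as well. The counts below stand against 37.4% of all genes past 1.5-fold with LDL and 31.7% without. Of 9 adipocyte markers, Adipoq, Lep, Plin1, Cidec and Ucp1 were at background on all 4 arrays. Cfd was well above background on the L2AKO LDL array only and was not measured in either genotype comparison. Retn, Fabp4 and Pparg were measured and all 3 were higher in L2AKO cells, by log2 differences of 1.30 to 1.67 with LDL and 1.51 to 1.87 without. The summed linear level of the 9, relative to the 75th percentile and carried mostly by Pparg and Fabp4, was 17.9 in L2AKO LDL and 17.3 in L2AKO control cells. It was 6.11 in WT LDL and 4.86 in WT control cells. The summed level of 6 mesothelial and epithelial markers was 21.7 and 18.9 in L2AKO cells, against 54.8 and 60.7 in WT cells. Such a sum follows the brightest probes, and single markers went both ways, with 2 higher and 3 lower with LDL (log2 differences of −3.24 to 4.31) and 2 higher and 4 lower without (−3.14 to 3.40). That of 7 fibroblast markers was 361.4 and 366.7 in L2AKO cells, against 437.2 and 508.4 in WT cells. Of the 6 fibroblast markers measured, 3 were higher and 3 lower with LDL (−1.97 to 4.85) and 2 higher and 3 lower without (−1.69 to 4.28). Smooth muscle markers summed to 248.4 and 239.6 in L2AKO cells, against 237.9 and 262.4 in WT cells, with 3 higher and 3 lower of 7 measured in both genotype comparisons. Macrophage markers summed to 51.2 and 34.8 in L2AKO cells, against 32.7 and 37.8 in WT cells. The sum was carried mostly by Itgam, read from the brightest of its 3 probes. Itgam was at 5.46 and 4.66 in L2AKO LDL and L2AKO control cells, against 4.63 and 4.82 in WT LDL and WT control cells. Of the macrophage markers, 2 were higher and 1 lower of 5 measured with LDL (−0.86 to 1.79), and 1 higher and 1 lower of 4 without (−0.63 to 1.85). The mean over probes gave 1 higher with LDL and 2 higher without. Adgre1, Ptprc and Mrc1 were at background throughout. Endothelial markers summed to 5.54 and 4.51 in L2AKO cells, against 4.58 and 5.73 in WT cells, and Cdh5, Tek and Erg were at background throughout. The part of these cell type markers in the Mgll, Dgat2 and pathway gene differences was not tested. In such bulk RNA, fewer cells of a type and less RNA per cell cannot be told apart.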

How the data were processed

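RNA was hybridised in 1 colour to Agilent mouse 8x60K arrays, 1 array for each of 4 groups. Per the file headers, intensity was read out by version 10.7.3.1 of Agilent Feature Extraction, which gave for each of 62976 spots a background-subtracted and detrended processed signal, not scaled between arrays, and flags for saturation and for lying well above background. The authors' deposited value table holds a signal with column medians of 57.4 to 57.6, for which the submitters' processing notes name oligo and RMA; its scaling and any log transform before deposit are not stated, and it served as an alternative only. The file headers name the build mm9, which was used for no coordinate here.

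Control spots were left out, spots of a probe were averaged, and 28330 of 55679 probes matched 1 gene through their accession, 27349 none and 0 several. Log2 of the processed signal was scaled by subtracting the 75th percentile of the array. A gene was read from its brightest probe and counted as measured where that probe was well above background on the arrays compared. No spot of a droplet gene was saturated. A difference of at least 1.5-fold was counted. With 1 array per group no group has a replicate, so no test was run and no p-value is given; the number of arrays limits the precision. The technical standard deviation came from 268 probes printed on each array in several copies, taken at a similar brightness. It compares copies within an array, so error between arrays is not in it. The counting at 1.5-fold was checked on simulated data. These were copies of 1 array with little noise and shifts of known size, so the check covers the counting step and not the reliability of a call. Alternatives were the median, the 75th percentile over probes above background, quantile normalisation, normexp with offset 50 (limma 3.58.1 in R 4.3.3), the deposited table, the mean over probes, other filters and 2-fold. Python 3.11.15 with numpy 2.4.6 and pandas 2.3.3 did the rest. Named list genes were those at least 2-fold apart, at most 4 per list and comparison; 1 listed gene is not reported here and was left out of the list counts. The 10 genes and the lists were chosen with earlier results of these data known.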

Additional observations from a re-analysis of the deposited data

Results flagged for a closer look

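Among the 10 droplet genes and the list genes named above, those below went one way with LDL in L2AKO cells and the other way in WT cells, or differed in direction by genotype with and without LDL. Each rests on 1 array per group, and none of the differences was tested. Values are the L2AKO LDL response minus the WT LDL response on the log2 scale. Pnpla2 was at 0.30, from 0.27 in L2AKO and −0.04 in WT cells. Dgat1 was at 0.25, from 0.22 in L2AKO and −0.03 in WT cells. The WT values of both lie near 0 and turned positive, so that the directions no longer opposed, under 2 of 6 alternatives for Pnpla2 (up to 0.03) and 3 of 6 for Dgat1 (up to 0.04). Soat1 was at −0.20, from −0.14 in L2AKO and 0.07 in WT cells, and its genotype difference of −0.12 with LDL and 0.09 without LDL gives the same −0.20; with median scaling the first of these is 0.08 and both are positive. Fitm2 was at 1.02, from 0.37 in L2AKO and −0.65 in WT cells. Ldah was at 0.28, from 0.06 in L2AKO and −0.22 in WT cells, but its other probe gave −0.04 in L2AKO and −0.35 in WT cells, the same direction in both. Npc1 was at −0.20, from −0.14 in L2AKO and 0.06 in WT cells. Npr3 was at −0.21, from −0.11 in L2AKO and 0.10 in WT cells. Prkar2b was at −0.39, from −0.15 in L2AKO and 0.24 in WT cells. Under the 6 alternatives its L2AKO value lay nearer 0, between −0.05 and 0.03. With the mean over probes its directions no longer opposed. The opposite direction rests on 1 of its 3 probes, as the others gave 0.01 and 0.21 in L2AKO and 0.29 and 0.52 in WT cells. The L2AKO LDL array, alone on its slide, enters each of these values, and over all genes the same difference had a standard deviation of 0.37, which the values of Fitm2 and Prkar2b exceed.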

How the results depend on the processing

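Under the alternatives tried, the counts of droplet genes past 1.5-fold stayed within 1.5 times the reported count in 48 of 50 cases. The exceptions were with no filter on dim probes, where 1 gene (Plin5, not above background on any array) was counted in the L2AKO LDL response and 1 in the difference between LDL responses, against 0 in each. Where the reported count was 0, the stricter alternatives could not raise it, so those cases carry no information. Of the differences of single genes, 97 moved by at least the technical standard deviation between spots and 149 did not. Mgll lay between 1.50 and 2.15 with LDL and between 1.43 and 2.06 without LDL, the lowest from the mean over probes, which includes the probe at background. Dgat2 lay between −1.99 and −1.71 with LDL and between −1.71 and −1.43 without. Plin2 lay between 0.37 and 0.56 with LDL. Differences near 0 changed sign under some of the alternatives: the LDL responses of Mgll in both lines and of Dgat1 and Pnpla2 in WT cells, the difference between LDL responses of Mgll and Plin3, and the genotype difference of Soat1 with LDL. Median scaling moved the median of all genes by 0.20 in the genotype comparison with LDL and by 0.11 in the L2AKO LDL response, and turned the balance of directions. Of all genes past 1.5-fold, 61.9% were then higher against 45.1% as reported in the first, 62.0% against 42.3% in the second, and 74.8% against 54.5% for the difference between LDL responses. For the L2AKO LDL response the 75th percentile over probes above background gave 60.1% and the deposited values gave 53.7%. For the WT LDL response the share was 43.8% with that percentile and 20.9% with normexp, against 33.7%. Counts over all genes varied more: for the L2AKO LDL response 483 to 7348 genes against 1026 here, for the WT LDL response 211 to 2507 against 481, for the difference between LDL responses 529 to 7683 against 1094, and for the genotype comparisons 3904 to 11569 against 4833 with LDL and 3280 to 6782 against 3997 without. The highest counts are those with no filter. No paired analysis was possible because each group had 1 array, and groups compared share a single replicate number.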
